A study of Homo sapiens with 18 samples.

Results

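The BCL2 family genes described here are 10 genes of the mitochondrial pathway of apoptosis: the pro-survival genes BCL2, BCL2L1 and MCL1, the effectors BAX and BAK1, and the BH3-only genes BCL2L11, BBC3, PMAIP1, BID and BAD. They were chosen by name as a textbook core of the family and matched by symbol to the Ensembl identifiers of the gene table, where all 10 of 10 were found among 60623 genes, and all 10 passed the filter on low counts. RNA was sequenced from HEK-293E cells, a human embryonic kidney cell line, in 18 libraries that form 6 groups of 3. The cells were starved overnight in DMEM with 0.1% FBS, or were starved and then fed for 1 h or 4 h with growth medium holding 10% FBS, and each of these states was taken without and with Torin1, an inhibitor that blocks the kinase mTOR in both of its complexes. All groups, the controls included, share the overnight starvation. How much Torin1 was added, and for how long, is not stated in the labels.

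BCL2 family proteins decide whether the outer mitochondrial membrane stays intact. BAX and BAK1 can open pores in that membrane and release cytochrome c, BCL2, BCL-xL (from BCL2L1) and MCL1 hold them in check, and BH3-only proteins, each induced or modified by a different kind of stress, bind the pro-survival proteins or the effectors. Growth factor and nutrient signals act on the family both through RNA levels and through the proteins. RNA counts show only the first of these, and do not tell RNA synthesis from RNA decay. HEK-293 lines carry adenoviral E1 genes, among them a viral relative of BCL2, which limits them as a model of apoptosis control.

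Library totals lay between 10510689 and 13690035 counts, and the members between 17 and 4225 counts in a library. All 10 listed HEK-293 transcripts (among them VIM and NEFM) averaged over 1 CPM (counts relative to the library total, scaled between libraries by TMM) across the libraries, and their sum was 1016 to 1254 CPM without Torin1 and 1501 to 1834 CPM with it. Fibroblast markers summed to 8.84 to 44.4 CPM and immune markers to 1.40 to 5.62 CPM, with 3 of 7 and 1 of 7 averaging over 1 CPM and none at 0 in all libraries. Torin1 raised 6 of the 10 HEK-293 transcripts in each feeding state, and the part of these markers in the results below was not tested. Fed 1 h replicate 1 was the highest of its group for BBC3, PMAIP1 and BAD, and the changes of these genes that it moves most are given both ways.

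Changes were tested for each gene with edgeR's quasi-likelihood test and Benjamini-Hochberg adjustment over all 16414 genes tested, and a gene was called at an adjusted p under 0.05. Nothing in the labels says that the 3 libraries of a group came from separate cultures, and p-values cover only the spread between libraries. After 1 h of feeding, 0 of the 10 members were called by edgeR, against 0.646% of all genes, with 1 member (BCL2) at an unadjusted p under 0.05 and 1 called by DESeq2. The count over all genes was 106, went to 248 without fed 1 h replicate 1, and was 55 to 66 without any other library of the comparison. After 4 h of feeding, 5 were called, 1 higher and 4 lower, against 42.3% of all genes (23.2% higher, 19.1% lower), and the same count with the same directions was found for 4 h against 1 h of feeding, where 39.8% of all genes were called (21.7% higher, 18.1% lower).

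Torin1 changed more of the members than feeding did, as it did over all genes. In starved cells it changed 9 of 10, and 3 of them rose and 6 fell, against 63.5% of all genes (33.9% higher, 29.6% lower). In 1 h fed cells 9 changed, and 3 rose and 6 fell, against 63.1% of all genes (33.2% higher, 29.9% lower). In 4 h fed cells 7 changed, and 2 rose and 5 fell, against 56% of all genes (27.4% higher, 28.6% lower). The median log2 fold change of the 10 members was −0.73, −0.46 and −0.30 in the 3 states, beside 0.09, 0.06 and 0.02 over all genes. MCL1, BCL2L1, BAX and BAK1 fell in all 3 states, 4 of 10 members, where 38.3% of all genes were called in the same direction in all 3. The 3 Torin1 comparisons use different libraries, but each shares its untreated libraries with a feeding comparison.

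**Figure D1:**
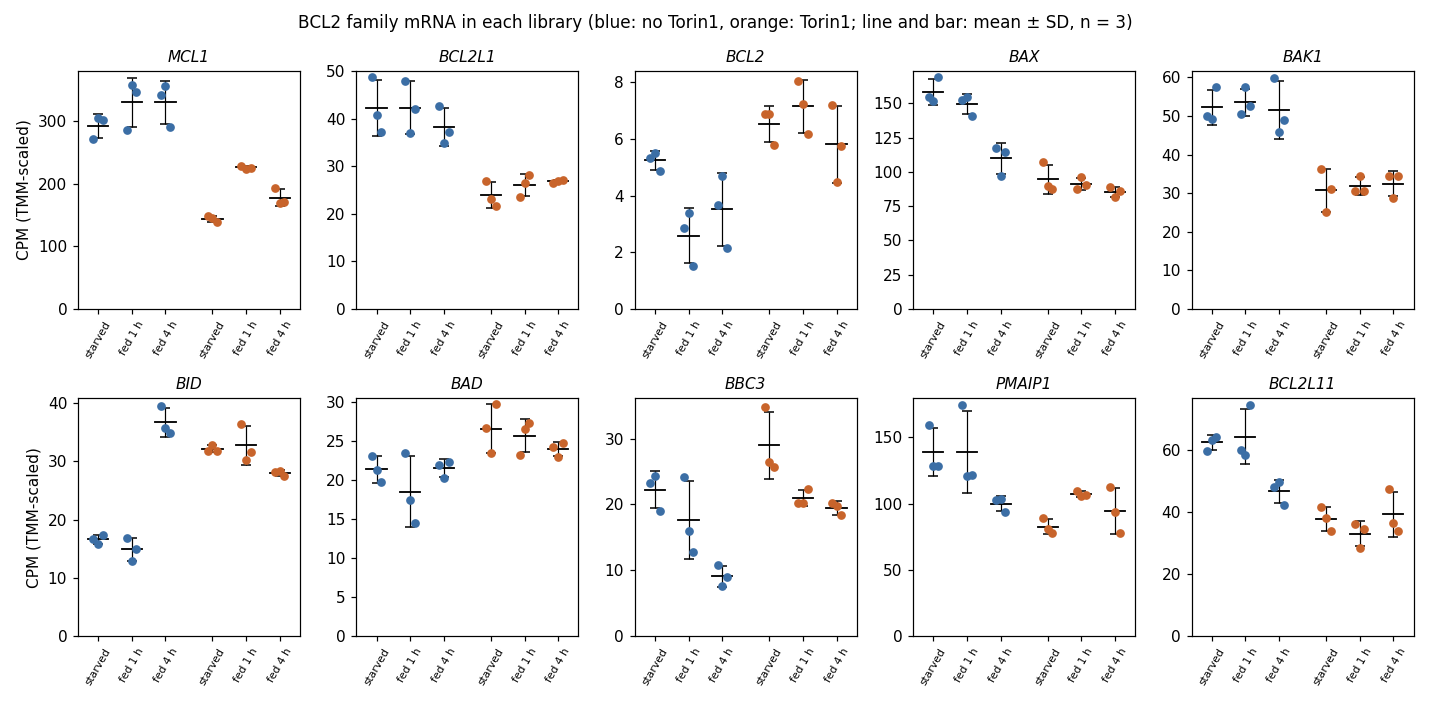
TMM-scaled CPM (y axis) of the 10 members in each library (points) of the 6 groups (x axis), blue without and orange with Torin1, with the mean and SD of 3 libraries. The orange points of MCL1, BCL2L1, BAX and BAK1 lie below the blue points of the same feeding state, and BID is at 12.97 to 17.4 CPM in untreated starved and 1 h fed cells and at 27.4 CPM or more elsewhere.

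By edgeR none of the 3 pro-survival genes was called with feeding in untreated cells (DESeq2 called BCL2 at 1 h), and with Torin1 MCL1 and BCL2L1 fell in every state while BCL2 rose in fed cells. MCL1 (chr1:150574551-150579738, minus strand, GRCh38, GENCODE 29) encodes a short-lived pro-survival protein, and its exons overlap those of ADAMTSL4-AS1 at 0 to 0.533 CPM. It was at 271, 305 and 303 CPM in the starved libraries and at 148, 145 and 139 CPM with Torin1. The groups did not overlap, as for 68.5% of all genes in this comparison, and MCL1 was 2.03-fold lower (log2 fold change −1.02, SE 0.09, edgeR adjusted p = 1.49e-11). In a bulk library, fewer cells with a transcript and less of it per cell cannot be told apart, here and for every change below.

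In 1 h fed cells MCL1 was at 285, 358 and 347 CPM without and 229, 224 and 226 CPM with Torin1, and in 4 h fed cells at 343, 357 and 291 CPM without and 194, 169.8 and 170.4 CPM with it. The treated libraries lay below all untreated ones in both states, as for 67.1% and 60.5% of all genes whose groups did not overlap. MCL1 fell by 0.55 (SE 0.09, edgeR adjusted p = 2.03e-06) and by 0.89 (SE 0.09, edgeR adjusted p = 4.68e-10) on the log2 scale.

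By edgeR MCL1 was also the one member called with feeding in the presence of Torin1. Under Torin1 it was at 144 ± 4.42 CPM in starved and 226 ± 2.39 CPM in 1 h fed cells (SD, n = 3). This is a rise of 0.65 on the log2 scale (SE 0.09, edgeR adjusted p = 4.60e-05), in a comparison where 0.402% of all genes were called and 22.6% had groups that did not overlap. That is 66 genes, against 22 to 45 when 1 library of the comparison was left out and 208 with only its groups in the fit, and MCL1 was called in each of these fits. At 1 h under Torin1, 3 members (MCL1, BBC3 and PMAIP1) had an unadjusted p under 0.05, and DESeq2 called 1. BBC3 changed by −0.47 (SE 0.17, edgeR adjusted p = 0.287) and PMAIP1 by 0.38 (SE 0.13, edgeR adjusted p = 0.308). With only the groups compared edgeR called both (adjusted p = 0.0456 and 0.0152). PMAIP1 was also called with no filter and with the replicate block. At 4 h under Torin1 MCL1 was at 178 ± 13.6 CPM, above the starved libraries with Torin1 in all 3 libraries. The change of 0.31 (SE 0.09) did not pass the threshold (edgeR adjusted p = 0.0652). It was called by DESeq2 (0.31, adjusted p = 0.0302), and in edgeR by total counts, with no filter, with the replicate block and with only the groups compared. It was not called with DESeq2 size factors or with any 1 library left out. By edgeR 0 of the 10 members were called at 4 h under Torin1, against 1.80% of all genes (0.829% higher, 0.975% lower) and with groups not overlapping for 21.3%, with 2 members (MCL1 and BBC3) at an unadjusted p under 0.05 and the same number called by DESeq2. Without Torin1, MCL1 differed by 0.17 (95% interval −0.00 to 0.35) after 1 h and by 0.17 (−0.00 to 0.35) after 4 h, neither past the threshold. The 4 h change was called without fed 4 h replicate 3 (0.26, edgeR adjusted p = 0.0221). The difference between the 1 h responses with and without Torin1 was 0.48 (SE 0.12) and was not called (edgeR adjusted p = 0.161), so the response is not shown to be larger under Torin1. Of the alternatives fitted, only that with no filter called this difference (0.47, edgeR adjusted p = 0.0409). For that difference 0 members were called by edgeR and 0 by DESeq2, against 0.067% of all genes (0.0122% higher, 0.0548% lower), with 2 (BCL2 and MCL1) at an unadjusted p under 0.05.

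BCL2L1 (chr20:31664452-31723989, minus strand) encodes BCL-xL and, by another splice site, the shorter pro-death form BCL-xS. Its 9 untreated libraries spanned 34.9 to 48.7 CPM and its 9 Torin1 libraries 21.7 to 28.1 CPM, with no overlap. The log2 fold changes with Torin1 were −0.82 (SE 0.12) in starved, −0.70 (SE 0.12) in 1 h fed and −0.52 (SE 0.12) in 4 h fed cells, with a highest edgeR adjusted p of 5.92e-04. With feeding its change was 0.00 (95% interval −0.24 to 0.25) at 1 h and −0.14 (−0.38 to 0.11) at 4 h. Exons of BCL2L1 overlap those of the antisense gene ABALON, at 3.84 to 12.3 CPM, and strand use in counting is not given in the sources used here, so reads of the pair may be mixed.

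BCL2 (chr18:63123346-63320128, minus strand), the founding member, was the least abundant. It was at 5.35, 5.51 and 4.87 CPM in starved, 2.85, 3.39 and 1.52 CPM in 1 h fed and 3.68, 4.70 and 2.15 CPM in 4 h fed libraries. With Torin1 it was at 6.89, 6.89 and 5.79 CPM in starved, 8.04, 7.23 and 6.18 CPM in 1 h fed and 7.19, 4.50 and 5.75 CPM in 4 h fed libraries. The 1 h fed and starved groups did not overlap, as for 12.3% of all genes, but the change of −1.01 (SE 0.28) was not called by edgeR (adjusted p = 0.114), and was by DESeq2 (−1.02, adjusted p = 0.0485). At 4 h the groups did not overlap either, and the change of −0.58 (SE 0.28) was called only when fed 4 h replicate 2 was left out (−0.86, edgeR adjusted p = 0.0252).

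Torin1 raised BCL2 in 1 h fed cells (log2 fold change 1.46, SE 0.28, edgeR adjusted p = 3.28e-05) and in 4 h fed cells (0.73, SE 0.27, edgeR adjusted p = 0.0224), where the groups overlapped, and it was not called in starved cells (0.32, SE 0.26). The 4 h call was lost without fed 4 h replicate 3 (0.47, edgeR adjusted p = 0.153) and without fed 4 h Torin1 replicate 1 (0.54, edgeR adjusted p = 0.130).

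The effectors fell with Torin1 in every feeding state, and BAX, but not BAK1, was called with 4 h of feeding. BAX (chr19:48954815-48961798, plus strand) was at 155, 151 and 169 CPM in starved, 152, 155 and 141 CPM in 1 h fed and 118, 96.9 and 115 CPM in 4 h fed libraries. The 4 h libraries lay below all starved and 1 h fed ones, as groups did not overlap for 49% of all genes against starved cells and 43.9% against 1 h fed cells. BAX fell by 0.53 on the log2 scale at 4 h (SE 0.09, edgeR adjusted p = 1.23e-05).

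With Torin1, BAX was at 107, 89.5 and 87.9 CPM in starved, 87.5, 96.2 and 90.3 CPM in 1 h fed and 88.8, 81.8 and 86.2 CPM in 4 h fed libraries. The treated groups lay within a narrow band under every untreated library of the same state. The fall was 0.74 (SE 0.09) on the log2 scale in starved cells, 0.71 (SE 0.09) in 1 h fed cells and 0.36 (SE 0.09, edgeR adjusted p = 9.88e-04) in 4 h fed cells. Scaled by total counts, the 4 h value was −0.20 (edgeR adjusted p = 0.0573).

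BAK1 (chr6:33572547-33580293, minus strand), the other effector, was at 49.1 to 57.5 CPM in starved, 50.6 to 57.5 CPM in 1 h fed and 45.8 to 59.96 CPM in 4 h fed cells. Its Torin1 groups spanned 25.0 to 36.2, 30.5 to 34.5 and 28.8 to 34.4 CPM. These are falls of 0.76, 0.75 and 0.67 on the log2 scale (SE 0.12 each, highest edgeR adjusted p = 2.57e-05). BAK1 was not called with 4 h of feeding (−0.02, 95% interval −0.26 to 0.23). Its exons overlap those of GGNBP1 on the opposite strand, which was at 0 to 0.240 CPM.

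Among the BH3-only genes BBC3, PMAIP1 and BCL2L11 fell with 4 h of feeding, BID rose and BAD was not called. BBC3 (chr19:47220822-47232766, minus strand) encodes PUMA, a target of FOXO factors that binds all pro-survival proteins. It was at 23.3, 24.3 and 19.0 CPM in starved, 24.2, 16.0 and 12.8 CPM in 1 h fed and 10.8, 7.58 and 8.99 CPM in 4 h fed libraries. The 4 h libraries were the lowest, below all others, and BBC3 was 2.43-fold lower than in starved cells (log2 fold change −1.28, SE 0.18, edgeR adjusted p = 1.57e-06), the largest fall among the members with feeding.

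With Torin1, BBC3 was at 34.8, 26.5 and 25.6 CPM in starved, 20.3, 20.2 and 22.4 CPM in 1 h fed and 20.3, 19.8 and 18.3 CPM in 4 h fed libraries. In 4 h fed cells this was 2.13-fold above the untreated libraries (1.09, SE 0.18, edgeR adjusted p = 9.96e-06), and the groups did not overlap. In starved cells it was 0.39 higher (SE 0.17, edgeR adjusted p = 0.0459), a call lost without starved replicate 1 (0.42), starved replicate 3 (0.28) or starved Torin1 replicate 1 (0.23, edgeR adjusted p = 0.286), and by DESeq2 (0.34, adjusted p = 0.0896). In 1 h fed cells it was not called (0.25, SE 0.17), but was without fed 1 h replicate 1 (0.53, edgeR adjusted p = 0.00616). The change with 1 h of feeding alone was −0.33 (SE 0.17), and −0.62 without that library, not called in either case, and 4 h against 1 h of feeding went from −0.95 to −0.66 without it.

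PMAIP1 (chr18:59899948-59904306, plus strand) encodes NOXA, which binds mainly MCL1 and promotes its degradation. It was at 159.6, 128 and 128 CPM in starved, 175, 121 and 122 CPM in 1 h fed and 103, 104 and 93.5 CPM in 4 h fed libraries. Each of the 4 h libraries was below every starved and 1 h fed library, a fall of 0.47 on the log2 scale from starved cells (SE 0.13, edgeR adjusted p = 0.00717). With Torin1 it was at 89.2, 81.1 and 77.6 CPM in starved, 109.7, 106 and 106 CPM in 1 h fed and 112, 93.7 and 77.9 CPM in 4 h fed libraries.

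Torin1 lowered PMAIP1 in starved cells by 0.74 (SE 0.13, edgeR adjusted p = 5.69e-05) and in 1 h fed cells by 0.37 (SE 0.13, edgeR adjusted p = 0.0190), and the 4 h fed groups overlapped (−0.08, SE 0.13). The 1 h value was −0.18 and no longer called without fed 1 h replicate 1 (edgeR adjusted p = 0.164). The change of PMAIP1 from 1 h to 4 h of feeding was −0.48, and −0.29 without fed 1 h replicate 1, called in both cases. The Torin1 call in 1 h fed cells was also lost without fed 1 h Torin1 replicate 2 or 3 (−0.36 and −0.37) and when scaled by total counts (−0.26).

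BCL2L11 (chr2:111119378-111168447, plus strand) encodes BIM, an activator of BAX and BAK1 that growth factor signalling is known to restrain. Its level was 59.9, 63.4 and 64.3 CPM in starved, 60.1, 58.4 and 74.5 CPM in 1 h fed and 48.0, 49.7 and 42.4 CPM in 4 h fed libraries. Only the 4 h group stood below the others, by 0.42 on the log2 scale from starved cells (SE 0.12, edgeR adjusted p = 0.00548).

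Under Torin1 BCL2L11 was at 41.6, 38.1 and 33.8 CPM in starved, 36.3, 28.5 and 34.4 CPM in 1 h fed and 47.6, 36.5 and 33.8 CPM in 4 h fed libraries. It fell by 0.72 (SE 0.12, edgeR adjusted p = 5.74e-06) in starved cells and by 0.96 (SE 0.12, edgeR adjusted p = 5.45e-08) in 1 h fed cells, and the 4 h fed groups overlapped (−0.25, SE 0.12, edgeR adjusted p = 0.0838). That last value was called without fed 4 h replicate 3 (−0.32) and without fed 4 h Torin1 replicate 1 (−0.41). Exons of BCL2L11 overlap those of MIR4435-2HG on the opposite strand, at 3.44 to 10.5 CPM.

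BID (chr22:17734138-17774770, minus strand), which caspase 8 cleaves to carry a death receptor signal to mitochondria, was the BH3-only gene that rose with 4 h of feeding. It was at 16.7, 15.8 and 17.4 CPM in starved, 16.9, 12.97 and 14.9 CPM in 1 h fed and 39.6, 35.7 and 34.9 CPM in 4 h fed libraries. Every 4 h library was above all starved and 1 h fed ones, and BID was 2.21-fold higher than in starved cells (1.14, SE 0.12, edgeR adjusted p = 2.21e-09), and no other member was called higher at 4 h.

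With Torin1, BID was at 31.8, 32.9 and 31.8 CPM in starved, 36.4, 30.2 and 31.6 CPM in 1 h fed and 28.3, 28.4 and 27.4 CPM in 4 h fed libraries. Torin1 raised it in starved cells (0.95, SE 0.12, edgeR adjusted p = 2.45e-08) and in 1 h fed cells (1.13, SE 0.12, edgeR adjusted p = 9.77e-10), and lowered it in 4 h fed cells (−0.39, SE 0.11, edgeR adjusted p = 0.00360). Scaled by total counts, the 4 h fed value was −0.23 (edgeR adjusted p = 0.0825).

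BAD (chr11:64269830-64284704, minus strand), which growth factor kinases hold inactive by phosphorylation, changed by no more than 0.48 on the log2 scale in any comparison of groups. Its groups spanned 19.7 to 23.1 CPM in starved, 14.6 to 23.5 CPM in 1 h fed and 20.2 to 22.4 CPM in 4 h fed cells, and 23.5 to 29.7, 23.3 to 27.3 and 22.9 to 24.7 CPM with Torin1. Torin1 raised it in 1 h fed cells (0.48, SE 0.14, edgeR adjusted p = 0.00375), where the groups overlapped through fed 1 h replicate 1. Without that library the rise was 0.68, the change with 1 h of feeding went from −0.21 to −0.41 and was not called, and 4 h against 1 h of feeding went from 0.22 to 0.42 and was called (edgeR adjusted p = 0.0195). In starved cells the rise of 0.32 (SE 0.14, edgeR adjusted p = 0.0471) was lost without starved replicate 2 (0.31), starved replicate 3 (0.26), starved Torin1 replicate 1 (0.31) or starved Torin1 replicate 3 (0.23), and by DESeq2 (0.27, adjusted p = 0.0958). In 4 h fed cells it was 0.16 (95% interval −0.13 to 0.44). Exons of BAD overlap those of GPR137 on the opposite strand, at 22.9 to 44.8 CPM, a level like its own, so its values are uncertain.

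**Figure D2:**
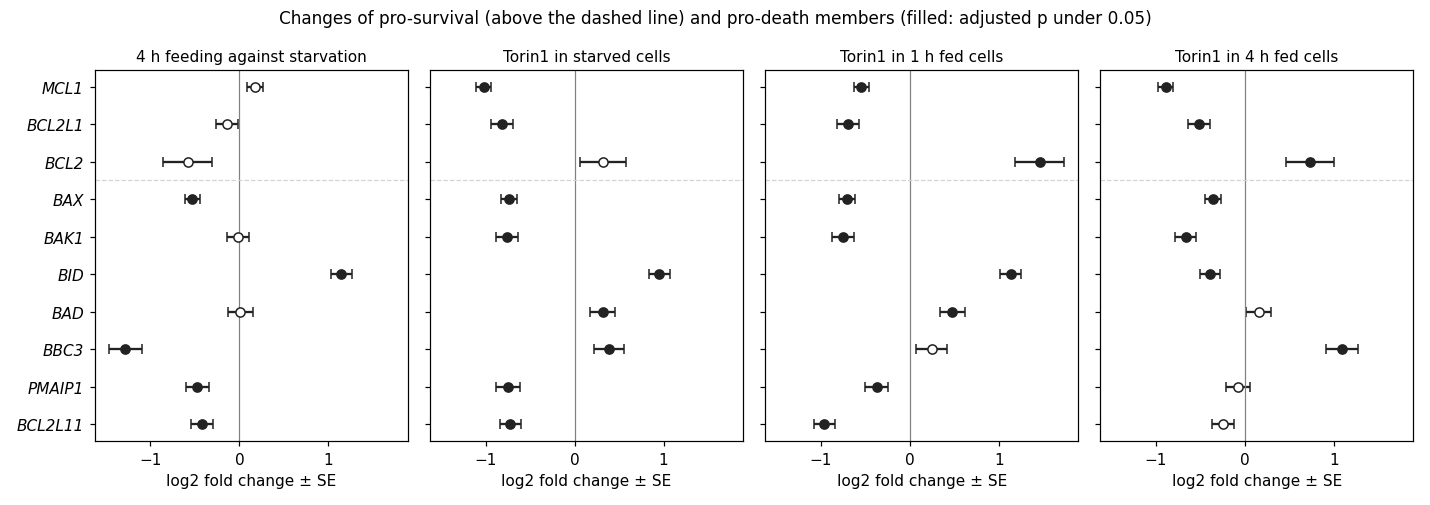
Log2 fold change (x axis) with its standard error for the 10 members (y axis) in 4 comparisons, with filled points for members called by edgeR. MCL1 and BCL2L1 lie left of 0 in the 3 Torin1 panels, and BBC3 and BID lie on opposite sides of 0 in the panel of 4 h feeding and again, reversed, in the panel of Torin1 in 4 h fed cells.

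The response to 4 h of feeding differed with Torin1 for 5 of the 10 members (4 higher and 1 lower, against 25.8% of all genes, 9.74% higher and 16% lower). Without Torin1, BCL2L11, BBC3, PMAIP1 and BAX had fallen, and with Torin1 their changes with 4 h of feeding were 0.05 (SE 0.12), −0.58 (SE 0.17), 0.20 (SE 0.13) and −0.15 (SE 0.09), none of them called by edgeR. The change of BBC3 under Torin1 was called by DESeq2 (−0.57, adjusted p = 0.0416), and in edgeR with the replicate block, with no filter and with only the groups compared. The tested differences were 0.47 (SE 0.17) for BCL2L11, 0.71 (SE 0.25) for BBC3, 0.67 (SE 0.19) for PMAIP1 and 0.38 (SE 0.13) for BAX. BID, which rose by 1.14 without Torin1, changed by −0.20 (SE 0.11) with it, a difference of −1.34 (SE 0.16, edgeR adjusted p = 1.36e-07). The differences of PMAIP1 and BID were called in every alternative fitted. That of BCL2L11 was lost (0.31 to 0.49) without starved replicate 2 or 3, fed 4 h replicate 1 or 3, starved Torin1 replicate 2 or 3, or fed 4 h Torin1 replicate 1. That of BBC3 was lost (0.60 to 0.69) without starved replicate 1 or 2, fed 4 h replicate 2 or 3, starved Torin1 replicate 2 or 3, or fed 4 h Torin1 replicate 1 or 2. That of BAX was lost (0.31 to 0.35) without starved replicate 3, fed 4 h replicate 2, starved Torin1 replicate 2 or 3, or fed 4 h Torin1 replicate 1.

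By group, the 3 pro-survival members had 0 called with 4 h of feeding (median −0.14), and the 7 pro-death members had 1 higher and 4 lower (median −0.42). Over all genes 42.3% were called (23.2% higher, 19.1% lower), with a median of −0.00. The pro-survival and pro-death members were not tested against each other. Under Torin1 in starved cells, 2 of 3 pro-survival members were lower, and 3 of the 7 pro-death members were higher and 4 lower. Medians were −0.82 for the pro-survival and −0.72 for the pro-death members, beside 0.09 over all genes, of which 63.5% were called. In 1 h fed cells 1 pro-survival member was higher and 2 lower, against 2 higher and 4 lower of the pro-death members (medians −0.55 and −0.37). In 4 h fed cells these were 1 higher and 2 lower against 1 higher and 3 lower (medians −0.52 and −0.25). Over all genes 63.1% were called in 1 h fed and 56% in 4 h fed cells, with medians of 0.06 and 0.02.

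To compare genes with each other, counts of their isoforms were divided by isoform length (CPM per kb). On this scale BAX was the highest member in every group, at 176 ± 10.2 in starved cells and 93.3 ± 3.36 in 4 h fed cells with Torin1 (SD, n = 3). MCL1 and PMAIP1 came next, at 79.0 ± 5.52 and 72.8 ± 9.20 in starved cells, where they did not differ beyond their spread. BAK1, BAD and BCL2L1 followed at 24.4 ± 2.15, 23.2 ± 1.91 and 22.01 ± 3.17, within each other's spread. BCL2L11 and BID were at 14.9 ± 1.02 and 14.9 ± 1.33, also within each other's spread. BBC3 was at 12.4 ± 1.69, and its starved libraries (10.5 to 13.4) lay below all those of BCL2L11 and BID. BCL2 was lowest in every group (1.39 ± 0.266 in starved cells). In 4 h fed cells BID had moved up to 35.6 ± 2.29, the fourth place, and BBC3 was at 5.04 ± 0.822, the ninth.

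Summed on this per-length scale, the 3 pro-survival members were at 99.5, 105 and 103 in the starved libraries and at 53.3, 49.5 and 47.2 in those with Torin1. The pro-death sum was 346, 324 and 346 without and 264, 226 and 231 with Torin1. Both sums were lower in each treated library than in any untreated one of that state.

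The pro-survival members therefore made up 22.3, 24.4 and 23.0% of the summed level in starved libraries and 16.8, 17.99 and 17.0% in starved libraries with Torin1. The share was 22.04, 27.2 and 28.2% in 1 h fed and 28.1, 30.6 and 26.1% in 4 h fed libraries, and 24.1, 22.7 and 24.1% and 20.7, 21.1 and 21.5% in those with Torin1. It was lower with Torin1 in starved and 4 h fed cells without overlap, and the 1 h fed groups overlapped, with fed 1 h replicate 1 at 22.04%. MCL1 held 71.3 to 84.1% of the pro-survival sum across all libraries. The summed share follows the most abundant genes, above all MCL1 and BAX.

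With every gene weighted equally, as the mean log2 CPM of the pro-survival members minus that of the pro-death members, the difference was −0.23, −0.19 and −0.30 in starved libraries and −0.59, −0.45 and −0.63 in those with Torin1, again without overlap. In 1 h fed libraries it was −0.54, −0.22 and −0.49 without and −0.20, −0.18 and −0.26 with Torin1. In 4 h fed libraries it was −0.21, 0.02 and −0.45 without and −0.33, −0.44 and −0.30 with Torin1. On this scale the 4 h fed groups overlapped, the 1 h fed groups overlapped with the Torin1 libraries mostly higher, and the 4 h fed libraries lay on both sides of the starved ones. Between libraries without and with Torin1 in the same feeding state, only the lower balance of starved cells was free of overlap on both scales. Among the Torin1 libraries the feeding states did not overlap on either scale, with 1 h fed cells highest, then 4 h fed and then starved cells. Both balances are descriptions of RNA levels and were not tested.

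**Figure D3:**
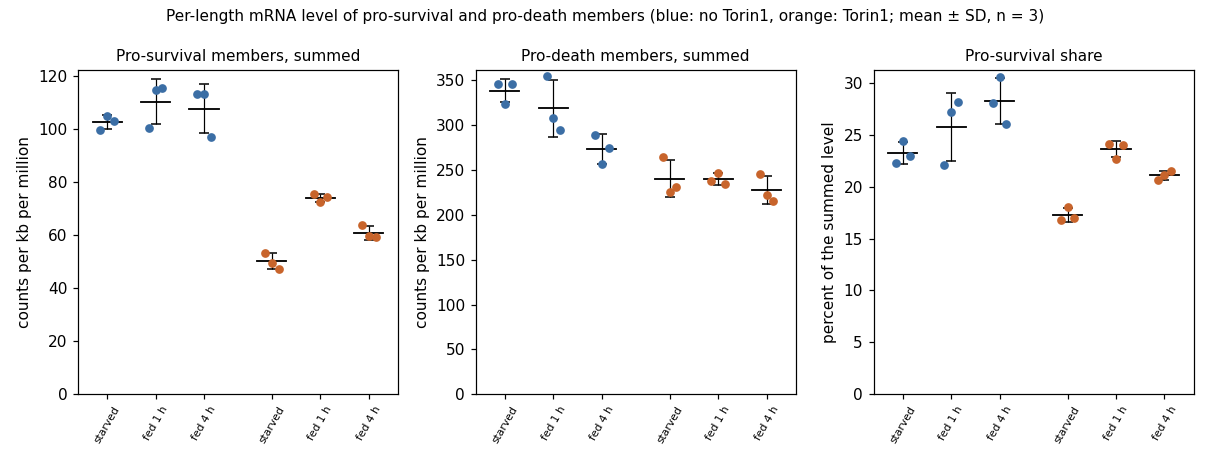
Summed per-length level (CPM per kb) of the 3 pro-survival members, of the 7 pro-death members, and the pro-survival share of both sums in percent, in each library (points) of the 6 groups (x axis), blue without and orange with Torin1, with the mean and SD of 3 libraries. The pro-survival share is lowest in starved cells with Torin1, at 16.8 to 17.99%, and highest in 4 h fed cells without it, at 26.1 to 30.6%.

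Splicing sets the function of MCL1 and BCL2L1, since the long forms protect cells and the short forms promote death. Junctions of the forms are shown because isoform values rest on few reads across those that tell forms apart. Both junctions given for MCL1-202 also occur in MCL1-204. Only the junction inside exon 1 sets MCL1-204 apart, and none of the lines is particular to MCL1-202. Each line gives the last 15 bases of the upstream exon in lower case and the first 15 of the downstream exon in capitals, read in the direction of the gene from GENCODE 29 transcripts (GRCh38).
MCL1-202 (long form, exon 1 to 2): agacggccttccaagGCATGCTTCGGAAAC
MCL1-202 (long form, exon 2 to 3): aaacaaagaggctggGATGGGTTTGTGGAG
MCL1-201 (exon 1 joined to 3): agacggccttccaagGATGGGTTTGTGGAG
MCL1-204 (a junction inside exon 1): ggagggcgacttttgGCCACCGGCGCCAAG
BCL2L1-201 (BCL-xL): gagaacggcggctggGATACTTTTGTGGAA
BCL2L1-202 (BCL-xS, an earlier splice site): cagagctttgaacagGATACTTTTGTGGAA

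The long form MCL1-202, with a coding length of 1050 bases, held 95.4 ± 0.591% of the MCL1 count in starved cells, 97.1 ± 0.260% in 1 h fed and 98.2 ± 0.571% in 4 h fed cells (SD, n = 3). With Torin1 it held 98.6 ± 1.11, 98.8 ± 0.356 and 99.2 ± 0.495%. The 2 short forms hold under 5% of the gene and were singled out after their values were seen.

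MCL1-201, which lacks the middle coding exon, held 0.969, 1.23 and 1.52% in starved and 1.48, 0.805 and 1.39% in 1 h fed libraries. It held 0.741, 0.188 and 0.161% in 4 h fed libraries. With Torin1 its share was 0 to 0.504% in starved, 0.187 to 0.414% in 1 h fed and 0 to 0.269% in 4 h fed libraries. The starved and 1 h fed libraries without Torin1 were the highest, above all others, at 27 to 54 counts each against 0 to 29.

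MCL1-204 held 1.87, 2.39 and 2.58% in starved libraries, above every library of the other groups, which were at 0 to 1.70%. Tested as its use against the other isoforms of the gene (diffSpliceDGE in edgeR, adjusted over 48663 isoforms), neither form was called. MCL1-201 changed by −2.93 (SE 1.36, edgeR adjusted p = 0.411) with Torin1 in starved cells and MCL1-204 by −2.80 (SE 1.25, edgeR adjusted p = 0.576) with 4 h of feeding, both on the log2 scale.

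**Figure D4:**
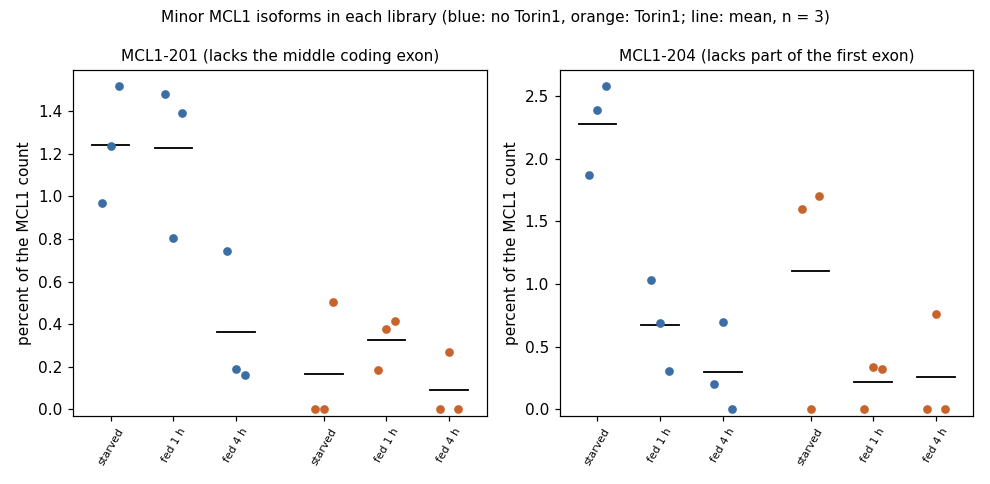
Share of the MCL1 count (percent, y axis) held by MCL1-201 and MCL1-204 in each library (points) of the 6 groups (x axis), blue without and orange with Torin1, with the mean of 3 libraries as a line. MCL1-201 is at 0.805% or more in the 6 untreated starved and 1 h fed libraries and at 0.741% or less in the others, and MCL1-204 is highest in untreated starved cells.

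For BCL2L1, isoforms with the BCL-xL coding length of 699 bases held 70.6 ± 2.65% of the gene in starved cells and between 72.5 and 76.4% on average in the other groups. BCL2L1-202, which encodes BCL-xS, held 9.89 ± 3.02% in starved, 9.24 ± 3.74% in 1 h fed and 6.84 ± 0.306% in 4 h fed cells. With Torin1 it held 11.5 ± 0.849, 7.04 ± 3.99 and 5.47 ± 5.53%. These ranges overlapped in most pairs of groups, from 0 to 64 counts a library, and BCL2L1-202 was called in none of the 4 comparisons tested.

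Of the 53 member isoforms tested, 0 were called with 4 h of feeding (against 0.44% of all isoforms) and 0 with Torin1 in starved cells (against 1.85%), with 3 and 5 at an unadjusted p under 0.05. Only edgeR was run on isoforms. On simulated counts this test found few of the isoform changes put in, so an isoform that was not called is not shown to be unchanged. With Torin1, 2 were called in 1 h fed cells (BCL2L1-203 lower and BID-215 higher, against 1.78%) and 2 in 4 h fed cells (BCL2L1-203 higher and PMAIP1-201 lower, against 1.28%).

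BCL2L1-203 has the same coding length as BCL2L1-201 and was at 0 in all libraries of 4 groups, at 0, 156 and 32 counts in 1 h fed and 0, 89 and 180 counts in 4 h fed Torin1 libraries. In fed 1 h replicate 2 and fed 4 h Torin1 replicates 2 and 3, BCL2L1-203 held 35.7, 25.2 and 48.3% of the gene. BCL2L1-201 held 35.2, 53.8 and 27.1% in these libraries and 67.6 to 79.1% in all others. The call of BCL2L1-203 in 1 h fed cells was lost without fed 1 h replicate 2 (edgeR adjusted p = 0.0878) or fed 1 h Torin1 replicate 3 (edgeR adjusted p = 0.0505). BID-215 was at 0 in all 1 h fed libraries and at 0 to 227 counts in those with Torin1. It was no longer called without any 1 of the untreated 1 h fed libraries, without fed 1 h Torin1 replicate 3, or with only the groups compared. PMAIP1-201, with a coding length of 408 bases against 162 for the main form, had 36, 35 and 38 counts in 4 h fed libraries and 0 in the 3 with Torin1, where 0 allows up to 3 counts.

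The other genes of the pathway were taken from lists set up for this tissue and treatment with earlier results of these data known. The share of all genes called stands beside the counts of each list, and for the 3 Torin1 comparisons in the order of the feeding states. Of 16 other BCL2 family genes, 11 were tested. After 4 h of feeding 3 were higher and 4 lower (7 of 11, against 42.3% of all genes), among them BNIP1, a membrane fusion protein of the endoplasmic reticulum (1.35, SE 0.15), and BNIP3L, a mitophagy receptor (−0.74, SE 0.17). With Torin1, 4 were higher and 3 lower in starved cells, 5 and 2 in 1 h fed cells, and 4 and 2 in 4 h fed cells, or 7, 7 and 6 of 11, against 63.5, 63.1 and 56% of all genes.

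BMF, a BH3-only gene, had the largest rise with Torin1 in each state among the called genes of this list with at least 5 CPM. It went from 6.85 ± 1.23 to 23.8 ± 1.30 CPM in starved cells (1.79, SE 0.17), from 5.83 ± 0.815 to 19.1 ± 2.01 CPM in 1 h fed cells (1.71, SE 0.17) and from 6.86 ± 1.53 to 28.7 ± 2.38 CPM in 4 h fed cells (2.06, SE 0.16). HRK, a BH3-only gene known from neurons, went from 9.50 ± 0.822 to 19.8 ± 2.48 CPM in starved cells (1.06, SE 0.16). BCL2L2, a pro-survival relative, was at 11.2 ± 3.06 CPM in 1 h fed cells and 25.6 ± 1.94 CPM with Torin1 (1.19, SE 0.16), while its readthrough gene BCL2L2-PABPN1 fell (−0.53, SE 0.12), and reads shared by this pair make both uncertain.

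Among 21 genes of the apoptosome, caspases and their inhibitors, 4 h of feeding raised 5 and lowered 8, and Torin1 raised 4 and lowered 9 in starved, 5 and 9 in 1 h fed, and 2 and 11 in 4 h fed cells. These are 13 of 21 genes called in each of 4 h feeding, Torin1 in starved cells and Torin1 in 4 h fed cells and 14 in 1 h fed cells, against 42.3, 63.5, 56 and 63.1% of all genes. CYCS, which encodes cytochrome c, fell with Torin1 from 449 ± 13.3 to 159.6 ± 11.2 CPM in starved cells (−1.49, SE 0.09). In the same comparison DFFB, the nuclease that cuts DNA in apoptosis, fell by 1.38 (SE 0.12) and CFLAR, an inhibitor of caspase 8, rose by 1.01 (SE 0.13). BIRC5, which acts in cell division as well as in survival, rose by 1.41 (SE 0.10) with Torin1 in starved cells and by 1.67 (SE 0.10) with 4 h of feeding. XIAP, a direct inhibitor of caspases, fell by 0.78 (SE 0.09) with 4 h of feeding.

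Of 7 death receptor genes tested of 8 listed, 2 rose and 4 fell with 4 h of feeding (42.3% of all genes). Torin1 raised 3 and lowered 2 in starved, 2 and 3 in 1 h fed, and 1 and 3 in 4 h fed cells (63.5, 63.1 and 56% of all genes). RIPK1, an adaptor kinase, rose by 1.79 (SE 0.11) with 4 h of feeding and by 1.11 (SE 0.12) with Torin1 in starved cells, and FAS fell by 1.29 (SE 0.20) with 4 h of feeding. TNFRSF10D, a decoy receptor, fell with Torin1 from 50.3 ± 5.48 to 15.9 ± 0.818 CPM in starved cells (−1.66, SE 0.11).

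Of the 10 mitochondrial and endoplasmic reticulum partners of BCL2 proteins, 2 rose and 2 fell with 4 h of feeding (42.3% of all genes). Torin1 raised 2 and lowered 6 in starved, 2 and 4 in 1 h fed, and 2 and 6 in 4 h fed cells (63.5, 63.1 and 56% of all genes). VDAC2, the channel that holds BAK1, rose by 0.36 (SE 0.07) and MTCH2, a receptor for BID, fell by 0.64 (SE 0.08) with Torin1 in starved cells. PPIF, which regulates the permeability transition pore, rose by 1.03 (SE 0.08) with 4 h of feeding.

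Of 14 genes for the turnover of MCL1 and BH3-only proteins, 6 rose and 8 were not called with 4 h of feeding, near the 42.3% of all genes called. With Torin1, 5 rose and 6 fell in starved, 5 and 3 in 1 h fed, and 2 and 5 in 4 h fed cells (63.5, 63.1 and 56% of all genes). MARCHF5, a mitochondrial ubiquitin ligase that acts on MCL1 complexes, rose by 1.48 (SE 0.11) with 4 h of feeding, from 36.7 ± 5.65 to 102 ± 9.30 CPM. GSK3A, of the GSK3 kinases that mark MCL1 for degradation, rose by 0.95 (SE 0.08) with 4 h of feeding and by 0.80 (SE 0.08) with Torin1 in starved cells. AKT1, which phosphorylates BAD, rose by 1.32 (SE 0.11) with Torin1 in starved cells, and YWHAB, a 14-3-3 protein of the family that binds phosphorylated BAD, fell by 0.66 (SE 0.09).

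The last list held 20 genes, in part transcription factors known to drive BH3-only genes and in part other stress response genes, such as MDM2 and CDKN1A. Of these, 4 rose and 4 fell with 4 h of feeding (42.3% of all genes). Torin1 raised 6 and lowered 9 in starved, 4 and 8 in 1 h fed, and 6 and 7 in 4 h fed cells (63.5, 63.1 and 56% of all genes). MDM2, a ubiquitin ligase, fell with Torin1 in starved cells by 0.72 (SE 0.12), and CDKN1A, an inhibitor of cell cycle kinases, was not called in that comparison (0.10, SE 0.25) nor with 4 h of feeding (0.20, SE 0.25).

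FOXO3, which can induce BCL2L11 and BBC3, rose with Torin1 by 0.59 (SE 0.09) in starved, 0.88 (SE 0.09) in 1 h fed and 0.44 (SE 0.09) in 4 h fed cells. ATF4 and DDIT3, factors of the integrated stress response that can induce PMAIP1 and BBC3, fell with Torin1 in starved cells by 0.74 (SE 0.07) and 2.46 (SE 0.24), and DDIT3 also fell with 4 h of feeding by 1.83 (SE 0.23). CEBPB had the largest fall with Torin1 in each state among the called genes of this list with at least 5 CPM (−2.63, SE 0.15 in starved cells).

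Across the 18 libraries, the genes with at least 5 CPM whose log2 CPM followed MCL1 most closely among 11695 compared were SF3A1, ZBTB43 and KPNA2 (Pearson r = 0.96 each). For BCL2L11 they were RAB23, UGDH and the unnamed gene ENSG00000287126 (0.97, 0.96 and 0.96), and for BBC3 they were YPEL3, ZSWIM9 and TESMIN (0.94, 0.93 and 0.92). These are descriptions over libraries of 6 groups that share the same treatments and depth.

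Promoter windows were available from RefSeq (GRCh38.p14) for 9 of the 10 members, with 15 windows in all, and not for MCL1. The 250 bases before each start were searched on both strands for 4 motifs of factors named above or of the E-box family: the E-box CACGTG, the half-site TGACG, TGATGNAA of the C/EBP-ATF type and GTAAACA of the forkhead type. CACGTG was found in BAX, BBC3 and BID, and in 6.34% of all 35116 windows. TGACG was found in 5 members (BAD, BAX, BCL2, BCL2L1 and PMAIP1) and 21.2% of windows, GTAAACA in BCL2L11 and 2.98%, and TGATGNAA in 0 members and 3.14%. A CACGTG can share its last bases with a TGACG, as in BAX. Members were counted by gene, with a match in any of their windows, whereas the percentages count single windows, so they cannot be compared directly. These matches are letters in a window, not shown sites of binding.

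The CACGTG matches outside annotated exons (2 of those in BAX) and the forkhead match of BCL2L11 are shown because these genes changed with feeding or Torin1, 5′ to 3′ on the strand of the gene, with the motif in capitals. The matches of BID and BCL2L11 lie within the gene spans given above, before starts inside the gene.
BAX, chr19:48954717-48954762: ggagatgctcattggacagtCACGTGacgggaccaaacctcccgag
BAX, chr19:48954762-48954807: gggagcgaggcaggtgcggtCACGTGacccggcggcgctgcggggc
BBC3, chr19:47232874-47232917: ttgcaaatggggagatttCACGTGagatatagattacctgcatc
BID, chr22:17774064-17774109: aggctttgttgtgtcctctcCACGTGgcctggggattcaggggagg
BCL2L11, chr2:111120671-111120717: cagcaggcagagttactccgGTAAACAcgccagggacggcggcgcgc
BBC3 and BAX fell with 4 h of feeding and BID rose, so the 3 genes with CACGTG did not move in 1 direction.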

How the data were processed

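Per the labels' protocols, total RNA was sequenced from HEK-293E cells. STAR, RSEM and DESeq2 are named without versions in the submitters' processing notes, beside a C. elegans build, whereas the deposited identifiers are human, so the human build, annotation and strand setting are not stated. The gene table deposited by the authors holds expected counts (3.32% of values not whole), and the isoform table deposited by the authors holds estimated counts as whole numbers, both not normalised. Positions, isoform names and lengths were taken from GENCODE 29, which matched 205950 of 227368 isoforms and 98.9% of their counts.

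Counts were rounded, filtered with filterByExpr (minimum count 10) and scaled by TMM. One mean per group (6 means, 12 residual degrees of freedom) was estimated in edgeR 4.0.16 under R 4.3.3. Isoform use was tested with diffSpliceDGE. The tests were tried on simulated counts. A count of 0 allows up to 3 counts, 0.219 to 0.285 CPM by library, for counting error only. Alternatives were DESeq2 1.42.0 size factors and Wald test, total counts, no filter, a block for the replicate number, leaving out each library and fits of only the groups compared. Members, lists, tests and the naming rule were chosen with earlier results of these data known. The rule named all members, up to 2 called genes of each list and direction in 4 comparisons, 6 context genes, and isoforms with at least 5% of their gene. Some genes the rule names are not reported here.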

Additional observations from a re-analysis of the deposited data

Results flagged for a closer look

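The response to 4 h of feeding differed between cells without and with Torin1 for 5 members, by the test of the difference itself (edgeR, adjusted over 16414 genes, against 25.8% of all genes). The difference in log2 fold change was −1.34 for BID (adjusted p = 1.36e-07), 0.67 for PMAIP1 (adjusted p = 0.0123), 0.38 for BAX (adjusted p = 0.0239), 0.71 for BBC3 (adjusted p = 0.0356) and 0.47 for BCL2L11 (adjusted p = 0.0408). With libraries left out one at a time, edgeR's adjusted p reached 0.0827 for BAX, 0.0948 for BBC3 and 0.199 for BCL2L11.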

How the results depend on the processing

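Of 41 called member changes over the 10 comparisons, 32 were called under every alternative fitted, and 9 were lost under at least 1 of them. Of the changes not called, 11 were called under some alternative, and no called member change reversed its direction. Of the counts of members called, smaller moves (within 1.5 times) include Torin1 in starved cells, with 7 called in place of 9 by DESeq2 and 7 to 9 without 1 library, and Torin1 in 4 h fed cells, with 5 in place of 7 by total counts. Larger moves were as follows. At 1 h of feeding 1 member, in place of 0, was called with no filter and by DESeq2's Wald test. At 1 h under Torin1, 2 were called in place of 1 with no filter and with the replicate block, and 3 with only the groups compared. At 4 h under Torin1, 1 was called in place of 0 by total counts, and 2 with no filter, with the replicate block, by DESeq2's Wald test and with only the groups compared. For the interaction at 1 h, 1 was called in place of 0 with no filter. Without 1 library, the count for the interaction at 4 h lay between 2 and 5. For isoforms, the count for Torin1 in 1 h fed cells was 0 with only the groups compared and lay between 0 and 2 without 1 library, and that for 4 h of feeding lay between 0 and 1. The cause was not tested.

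Scaling by total counts in place of TMM moved the median log2 fold change of all genes with Torin1 from 0.09 to 0.23 in starved, 0.06 to 0.17 in 1 h fed and 0.02 to 0.19 in 4 h fed cells, and the genes called higher and lower from 5559 and 4859 to 6494 and 4063 in starved cells. In 1 h fed cells these went from 5451 and 4910 to 6228 and 4184, and in 4 h fed cells from 4505 and 4693 to 5773 and 3453. Replicate numbers were not found to pair the libraries clearly, since same-numbered deviations correlated between −0.11 and 0.16 and no comparison had all 3 pairs over 0.1. The replicate block still raised the genes called in every comparison, as from 66 to 110 at 1 h under Torin1 and from 6940 to 7188 at 4 h of feeding. A weak pairing is therefore not excluded. The replicate block changed no other member count beyond 1.5 times. With 3 libraries a group, BCL2, at 17 counts in the lowest library, and isoforms under 5% of a gene are the least precise values.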
